A study of Mus musculus with 12 samples.

Results

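The 34 genes described here encode the glycolytic enzymes and transporters, the transcription factor subunit HIF1A with the prolyl hydroxylases that mark it for destruction, and textbook targets of HIF1A. They were taken by symbol from a list of names that was chosen with earlier results of these data known. They make up 34 of the 54232 genes in the count table. Of these, 18 belong to glycolysis itself and 16 to HIF1A, its hydroxylases and its other targets. All 34 had at least 10 counts in at least 2 libraries, the filter used for testing. The RNA came from bone marrow derived macrophages (BMDMs) of wild-type C57BL/6 mice, 6 to 8 weeks old per the methods of the study, that had been in culture for 5 days. They were kept for 24 h without stimulation (NS), in tumor-conditioned medium (TCM) of NB9464 cells, a MYCN-amplified mouse neuroblastoma line, or in TCM of NBT3L, a neuroblastoma line without MYCN amplification. Each of these media was used with and without 500 nM R788 (fostamatinib), an inhibitor of the kinase Syk, which gives 6 groups of 2 libraries. NB9464 TCM was collected in DMEM without serum, whereas BMDMs were grown in RPMI with serum and MCSF. The medium of the NS wells, the preparation of NBT3L TCM and the solvent control for R788 were not stated. An effect of tumor cell products therefore cannot be told apart from one of the base medium or of its lower serum. Nor can an effect of R788 be told apart from one of its solvent. The labels name no hypoxic incubation for these libraries. The study asked whether Syk acts on macrophages through HIF1A protein, which RNA counts do not measure.

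Glycolysis splits glucose into pyruvate in the cytosol, and lactate dehydrogenase with the exporter Slc16a3 turns that pyruvate into lactate and removes it. HIF1A is made and destroyed continuously when oxygen is present, because the Egln enzymes hydroxylate it. When that step is blocked, HIF1A pairs with Arnt, binds the short core of the hypoxia response element and raises transcription of most glycolytic genes and of genes that restrain mitochondria. In macrophages the same program is known to accompany inflammatory activation with normal oxygen.

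The promoters of 6 members are shown because these genes carry the main results that follow. Pfkfb3 had the highest rise in TCM, Ankrd37 the deepest fall with R788, and Bnip3 the widest gap between the TCMs among members called there. Pgk1 and Ldha are glycolytic enzymes that rose in TCM and fell with R788 in macrophages without TCM. Tpi1 moved as they did, and its window held no core. Each line gives 250 bases before a transcription start from RefSeq, 5′ to 3′ on the strand of the gene. Pfkfb3 and Ldha had 2 windows each, and the one with the most cores was chosen for display. Capitals mark ACGTG or GCGTG, the cores of the hypoxia response element, on either strand, so that CACGTG is a match on both strands and overlapping matches run together.
Pfkfb3 promoter, GRCm38.p6, minus strand, chr2:11502091-11502340: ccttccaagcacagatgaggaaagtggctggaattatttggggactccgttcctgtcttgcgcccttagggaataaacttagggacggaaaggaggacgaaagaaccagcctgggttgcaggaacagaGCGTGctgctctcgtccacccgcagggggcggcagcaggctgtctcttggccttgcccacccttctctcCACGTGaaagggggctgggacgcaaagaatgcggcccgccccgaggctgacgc
Ankrd37 promoter, GRCm38.p6, minus strand, chr8:45999851-46000100: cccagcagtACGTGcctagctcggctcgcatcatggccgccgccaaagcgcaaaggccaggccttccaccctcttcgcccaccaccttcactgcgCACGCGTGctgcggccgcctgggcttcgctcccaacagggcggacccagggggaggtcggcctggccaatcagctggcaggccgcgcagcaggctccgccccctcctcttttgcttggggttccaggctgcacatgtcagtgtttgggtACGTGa
Bnip3 promoter, GRCm38.p6, minus strand, chr7:138909507-138909756: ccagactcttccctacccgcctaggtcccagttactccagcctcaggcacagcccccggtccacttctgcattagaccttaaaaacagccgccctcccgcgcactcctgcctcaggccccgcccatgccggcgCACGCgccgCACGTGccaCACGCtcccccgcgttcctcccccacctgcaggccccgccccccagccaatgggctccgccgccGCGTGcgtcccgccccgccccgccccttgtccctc
Pgk1 promoter, GRCm38.p6, plus strand, chrX:106186850-106187099: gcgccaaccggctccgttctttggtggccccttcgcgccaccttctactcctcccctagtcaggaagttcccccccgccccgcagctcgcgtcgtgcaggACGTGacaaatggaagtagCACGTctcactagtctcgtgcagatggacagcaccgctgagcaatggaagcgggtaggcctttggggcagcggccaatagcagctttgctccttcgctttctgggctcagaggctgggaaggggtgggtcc
Ldha promoter, GRCm38.p6, plus strand, chr7:46845554-46845803: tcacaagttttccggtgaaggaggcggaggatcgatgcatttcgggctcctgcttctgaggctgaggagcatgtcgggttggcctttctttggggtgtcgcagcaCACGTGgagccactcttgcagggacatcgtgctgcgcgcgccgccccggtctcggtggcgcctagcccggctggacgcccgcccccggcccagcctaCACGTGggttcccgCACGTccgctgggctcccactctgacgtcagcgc
Tpi1 promoter, GRCm38.p6, minus strand, chr6:124814159-124814408: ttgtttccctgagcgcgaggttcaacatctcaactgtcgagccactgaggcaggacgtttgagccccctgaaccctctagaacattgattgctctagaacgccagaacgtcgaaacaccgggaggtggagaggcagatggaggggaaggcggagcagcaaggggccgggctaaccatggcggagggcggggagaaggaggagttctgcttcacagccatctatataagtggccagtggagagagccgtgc
Of the 34 members, 31 had at least 1 RefSeq window, counted as 250 bases before to 50 after a start. Slc2a3, Bnip3l and Ndrg1 had none. ACGTG was found in a window of 23 of the 31 (74.2%), against 28.1% of the 11232 other tested genes with a window. Either core was found in 29 of the 31 (93.5%), against 64.8% of those genes, and the exceptions were Gpi1 and Tpi1. Over all RefSeq genes with a window these shares were 21.8% and 46.7%. The windows of the members were also richer in G and C, with a median of 64.0% against 52.7% in all windows. The list was drawn up to hold textbook targets of HIF1A, so these shares are not independent of how the members were chosen. The letters describe the windows, and occupancy by HIF1A was not measured.

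Total counts were between 44977847 and 56449685 per library, and 16149 to 18343 genes were detected. One library of the R788 group, SJ8, stood apart. It had the fewest detected genes, and the SD of the log2 difference between the R788 pair was 0.469 over 11500 genes, against 0.293 to 0.331 in the other pairs. Over the 34 members the same SD was 0.223 in the R788 pair and 0.095 to 0.231 in the others. The median absolute log2 difference of the members was 0.121 in the R788 pair, the widest, and 0.024 to 0.081 in the others. All 10 macrophage markers, Adgre1 and Csf1r among them, had counts in every library. Summed normalized counts of 10 neuroblastoma markers were 9.48 to 12.2 in NS, 25.4 to 41.5 in R788 and 86.4 to 153 in the groups with TCM, with Th and Chga at 0 in every library. Of the 10, 1 to 3 had counts in a library without TCM and 3 to 7 in one with TCM. Those of 8 neutrophil markers were 5433 to 5921 in NS and 8549 to 10789 in TCM without R788, where the defining marker Ly6g had a mean of 0 in NB9464 TCM and 1.24 in NBT3L TCM. S100a8 carried that sum in TCM, with a mean of 6043 in NB9464 TCM and 7978 in NBT3L TCM. In NS its mean was 1265, so other markers of the list made up most of the sum there. Of the 7 neutrophil markers tested, 1 rose and 4 fell in NB9464 TCM, and 1 rose and 5 fell in NBT3L TCM. Of the 7 fibroblast markers, 3 rose with R788 without TCM and 2 in each TCM. Their summed counts were 1309 to 1676 in NS and 2651 to 3058 in R788, 1594 to 1774 and 2280 to 2486 in NB9464 TCM without and with it, and 2006 to 2260 and 3529 to 3580 in NBT3L TCM, and lymphocyte and dendritic cell markers stayed under 100 in each library. Whether RNA of these cells had a share in the results was not tested.

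**Figure D1:**
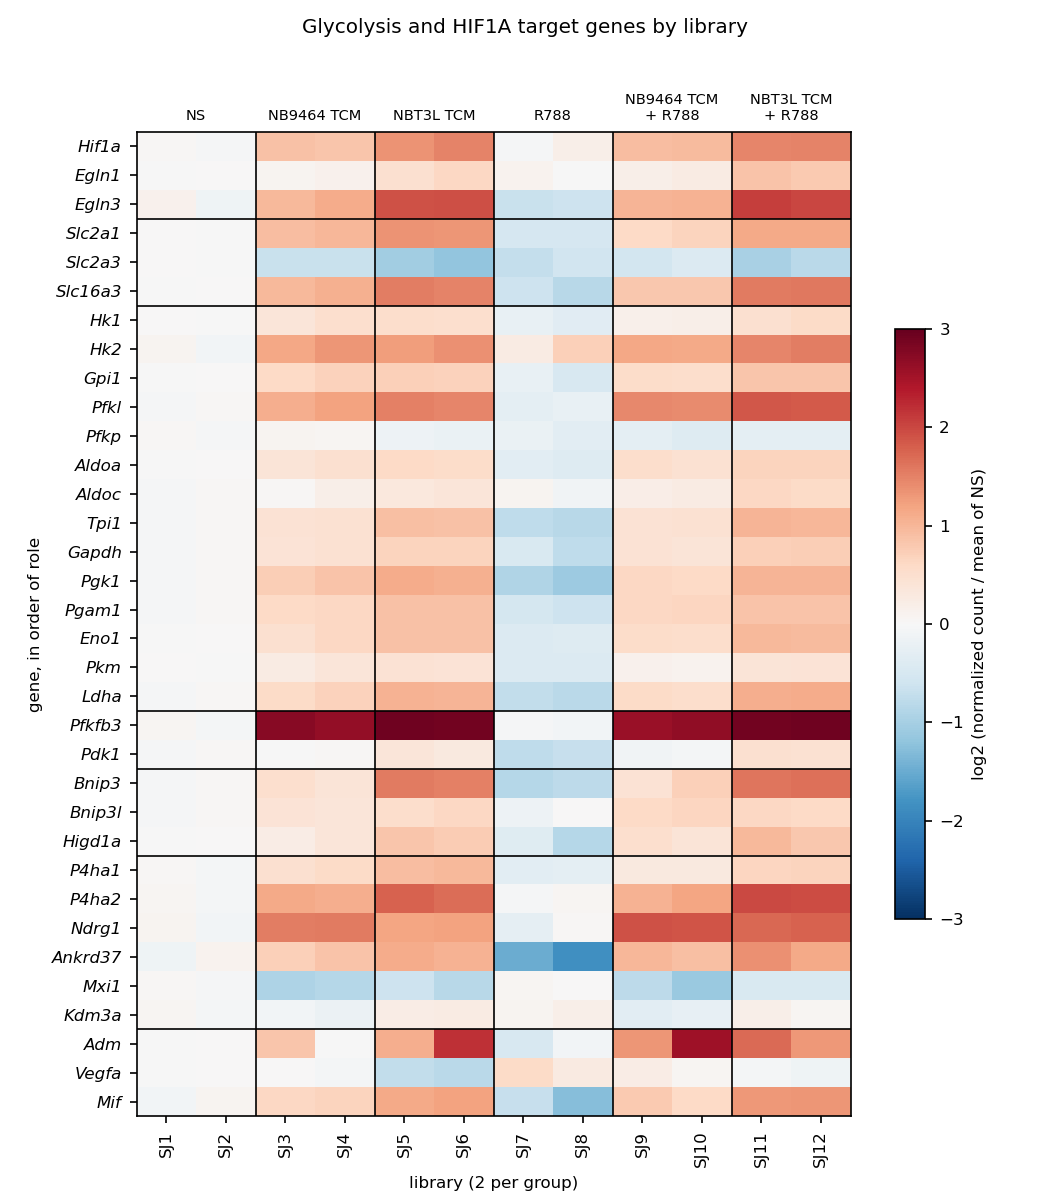
Log2 ratio of the normalized count in each of the 12 libraries (columns, 2 per group) to the mean of NS, for the 34 genes in order of role (rows). Most glycolytic rows are red in the 4 groups with TCM and blue in R788 alone. Slc2a3 is blue in every group other than NS, and Pfkfb3 reaches the darkest red.

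The whole set took 1.54% to 1.56% of all counts in NS libraries, 1.98% to 2.06% in NB9464 TCM and 2.22% to 2.26% in NBT3L TCM. It took 1.14% to 1.19% in R788, 1.90% to 1.92% in NB9464 TCM + R788 and 2.35% in both libraries of NBT3L TCM + R788. The ranges of the 6 groups did not overlap. In bulk RNA, fewer cells that express a gene and less of its RNA per cell cannot be told apart.

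Incubation in TCM came with higher RNA of most of the set. In NB9464 TCM against NS, 24 members rose and 2 fell by the Wald test of DESeq2 with Benjamini-Hochberg adjusted p under 0.05. Over all 16281 genes tested, 17.2% rose and 16.9% fell. In NBT3L TCM against NS, 29 members rose and 4 fell, where the shares over all genes were 18% and 17.3%. The median log2 fold change of the members was 0.50 in NB9464 TCM and 0.89 in NBT3L TCM, and over all genes it was 0.021 and 0. Of the 18 glycolysis members, 15 rose and 1 fell in NB9464 TCM and 16 rose and 2 fell in NBT3L TCM. Of the 16 members of the HIF1A group, 9 rose and 1 fell, and 13 rose and 2 fell, in the same order. At least 2-fold rises were seen in 7 and 14 members, respectively. The values of the pairs of libraries did not overlap for 31 and 34 of the 34 members, where they did not overlap for 64.5% and 66.8% of all genes tested. Both comparisons use the same NS libraries. All p-values measure the spread between these libraries, since no source said whether they came from separate cultures or animals. With 2 libraries against 2, an exact permutation test cannot go below a two-sided p of 0.333, so single genes were judged only by the fit across all genes.

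**Figure D2:**
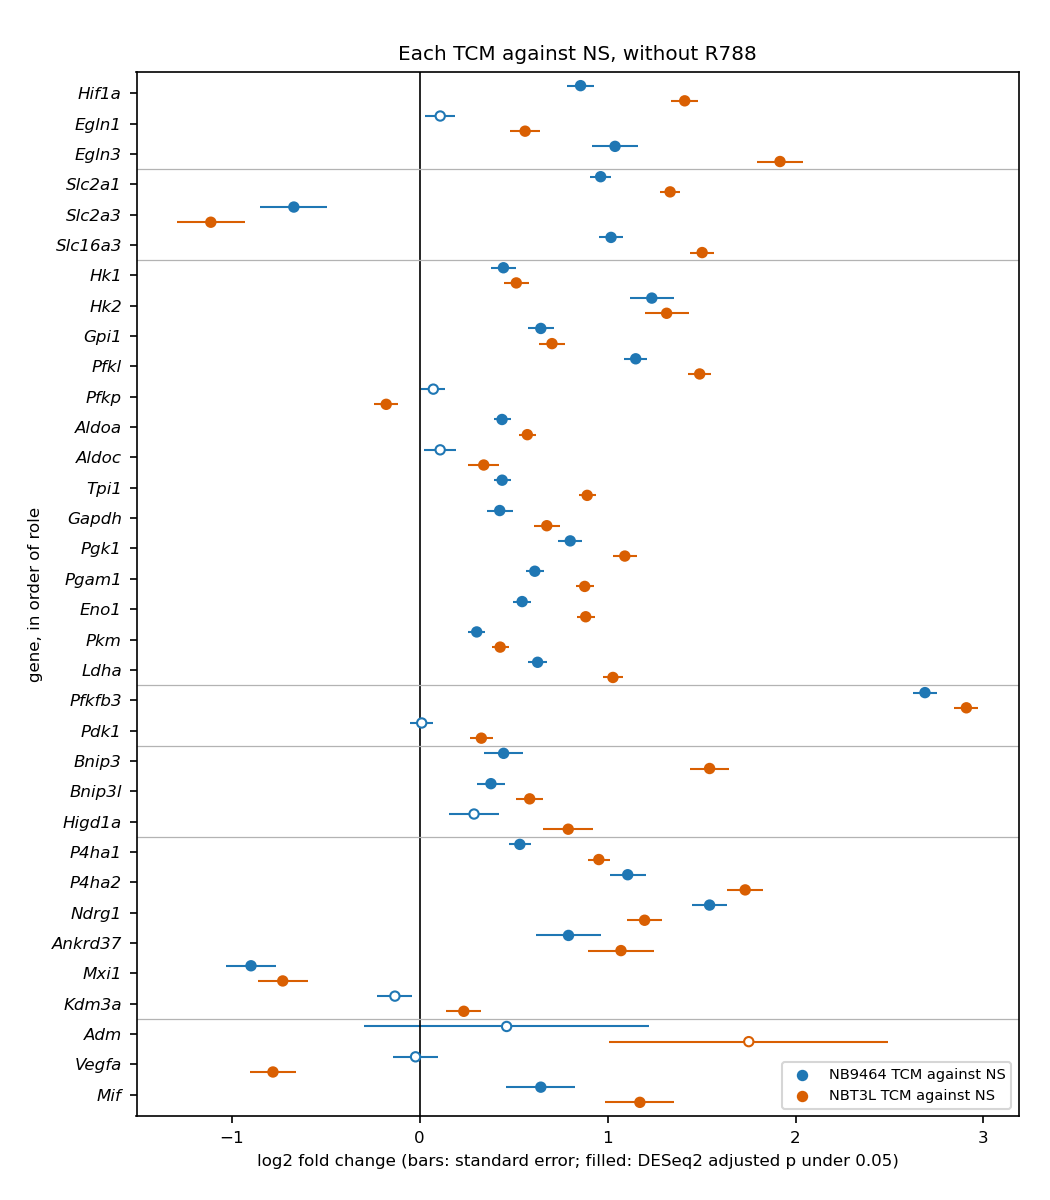
Log2 fold change (x axis) of each of the 34 genes (y axis, by role) in NB9464 TCM (blue) and NBT3L TCM (orange) against NS, with the standard error as bars and filled points where the DESeq2 adjusted p was under 0.05. Pfkfb3 lies farthest to the right in both, and Slc2a3 and Mxi1 lie left of 0 in both.

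Hif1a RNA itself rose in both TCMs. Its normalized counts were 5877 and 5620.0 in NS, 10614 and 10199.9 in NB9464 TCM and 14559 and 15999 in NBT3L TCM, with no overlap between the groups. The log2 fold change ± SE against NS by DESeq2 was 0.86 ± 0.072 (adjusted p = 7.69e-31) for NB9464 TCM and 1.41 ± 0.072 (adjusted p = 8.12e-83) for NBT3L TCM, and values after ± in what follows are SE unless stated otherwise. Egln3, a hydroxylase of HIF1A that is also its target, had 630.2 and 528 counts in NS, 1138 and 1243 in NB9464 TCM and 2169.6 and 2206 in NBT3L TCM. Its rise was 1.04 ± 0.12 (adjusted p = 9.66e-16) and 1.92 ± 0.12 (adjusted p = 9.16e-53), respectively. Egln1, the main oxygen sensor among these hydroxylases, had 3324 and 3343 counts in NS, 3519 and 3673 in NB9464 TCM and 4676 and 5158 in NBT3L TCM. It rose in NBT3L TCM (0.56 ± 0.080, adjusted p = 2.59e-11) and its change in NB9464 TCM was 0.11 ± 0.080 (adjusted p = 0.328).

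Transport genes moved in opposite directions. Slc2a1, the widely expressed glucose importer GLUT1, had 7561 and 7322 counts in NS, 14101 and 14912 in NB9464 TCM and 18998 and 18491 in NBT3L TCM. These rises were 0.96 ± 0.055 (adjusted p = 1.84e-67) and 1.33 ± 0.055 (adjusted p = 7.33e-129). Slc16a3, the lactate exporter MCT4, went from 11130.2 and 11158 in NS to 21974 and 23173 and 32056 and 31126, a rise of 1.02 ± 0.065 (adjusted p = 3.12e-53) and 1.5 ± 0.065 (adjusted p = 1.83e-115). Slc2a3, the high-affinity importer GLUT3, fell instead. Its counts were 682 and 681 in NS, 426 and 431 in NB9464 TCM and 329 and 302 in NBT3L TCM. The fall was -0.67 ± 0.18 (adjusted p = 0.000771) and -1.11 ± 0.18 (adjusted p = 8.40e-09), and per kb of exon Slc2a3 was the lowest of the 17 transporter and enzyme genes in all 6 groups. The ratio of Slc2a1 to Slc2a3 per kb was 22.2 to 22.9 in NS libraries, 68.5 to 71.5 in NB9464 TCM and 119 to 127 in NBT3L TCM.

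Of the 14 glycolytic enzyme genes, 12 rose and none fell in NB9464 TCM, and 13 rose and 1 fell in NBT3L TCM. The widest rises were at hexokinase and phosphofructokinase. Hk2, the inducible hexokinase that phosphorylates glucose, had 2911 and 2615 counts in NS, 6134 and 6877 in NB9464 TCM and 6579 and 7162 in NBT3L TCM, rises of 1.24 ± 0.12 (adjusted p = 5.43e-25) and 1.31 ± 0.12 (adjusted p = 3.65e-28). Pfkl, the liver-type phosphofructokinase that commits sugar to glycolysis, went from 7229 and 7671 to 15737 and 17316 and 21209 and 20646, rises of 1.15 ± 0.060 (adjusted p = 3.36e-80) and 1.49 ± 0.060 (adjusted p = 1.76e-134). Pfkp, the platelet-type form of the same enzyme, did not follow. It had 10009 and 9414 counts in NS and 10329.7 and 10096 in NB9464 TCM (0.073 ± 0.065, adjusted p = 0.442), and it fell to 8740.4 and 8428 in NBT3L TCM (-0.18 ± 0.065, adjusted p = 0.0194). Exons of Pfkp overlap those of Pitrm1 on the other strand over 748 bases. Pitrm1 had 38169 counts over all libraries, and counting by strand was not stated. The fall of Pfkp was lost without SJ1, SJ5 or SJ6. Hk1, the constitutive hexokinase, rose by 0.45 ± 0.067 and 0.51 ± 0.067.

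Among the later enzymes, Pgk1, which makes the first ATP of the pathway, and Ldha, which reduces pyruvate to lactate, rose most in NBT3L TCM. Pgk1 counts were 27774 and 28966 in NS, 47275 and 51593 in NB9464 TCM and 61482 and 59437 in NBT3L TCM, with changes of 0.80 ± 0.063 (adjusted p = 6.37e-36) and 1.09 ± 0.063 (adjusted p = 3.68e-66). Ldha counts were 68701 and 72074, 104225 and 113271 and 145530.0 and 141620.1, with changes of 0.63 ± 0.052 (adjusted p = 1.23e-32) and 1.03 ± 0.052 (adjusted p = 1.49e-86). For both genes the 3 groups lay apart in the same order, NS below NB9464 TCM below NBT3L TCM. Tpi1, which converts the triose phosphates into each other, had 35416 and 37060.3, 48755 and 49495 and 68033 and 66402 counts in that order of groups and rose by 0.44 ± 0.046 and 0.89 ± 0.046. Gapdh, often taken as a constant reference in expression work, had 109869 and 115259, 148435 and 154019 and 180289 and 179489. It rose by 0.43 ± 0.069 (adjusted p = 7.44e-09) and 0.68 ± 0.069 (adjusted p = 3.50e-21). In 119 other genes, at least 20% of the 25-base stretches of a transcript were shared with Gapdh. Their own counts together came to 0.895% of those of Gapdh. Exons also overlap between Gapdh and Iffo1 (68 bases), Tpi1 and Spsb2 (34 bases) and Pkm and Gm49759 (767 bases), and reads there could be split between them. Gpi1 rose by 0.64 ± 0.068 and 0.70 ± 0.068, Pgam1 by 0.61 ± 0.049 and 0.88 ± 0.049, and Eno1 by 0.55 ± 0.048 and 0.88 ± 0.048, in NB9464 TCM and NBT3L TCM respectively. Among the enzymes called in both TCMs, the smallest rises were those of Pkm, which makes pyruvate and was the most abundant enzyme per kb in NS, at 0.30 ± 0.045 and 0.43 ± 0.045. Aldoa, the main aldolase, rose by 0.44 ± 0.045 and 0.57 ± 0.045. Aldoc changed by 0.11 ± 0.083 (adjusted p = 0.351) in NB9464 TCM and rose by 0.34 ± 0.083 (adjusted p = 0.000211) in NBT3L TCM.

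**Figure D3:**
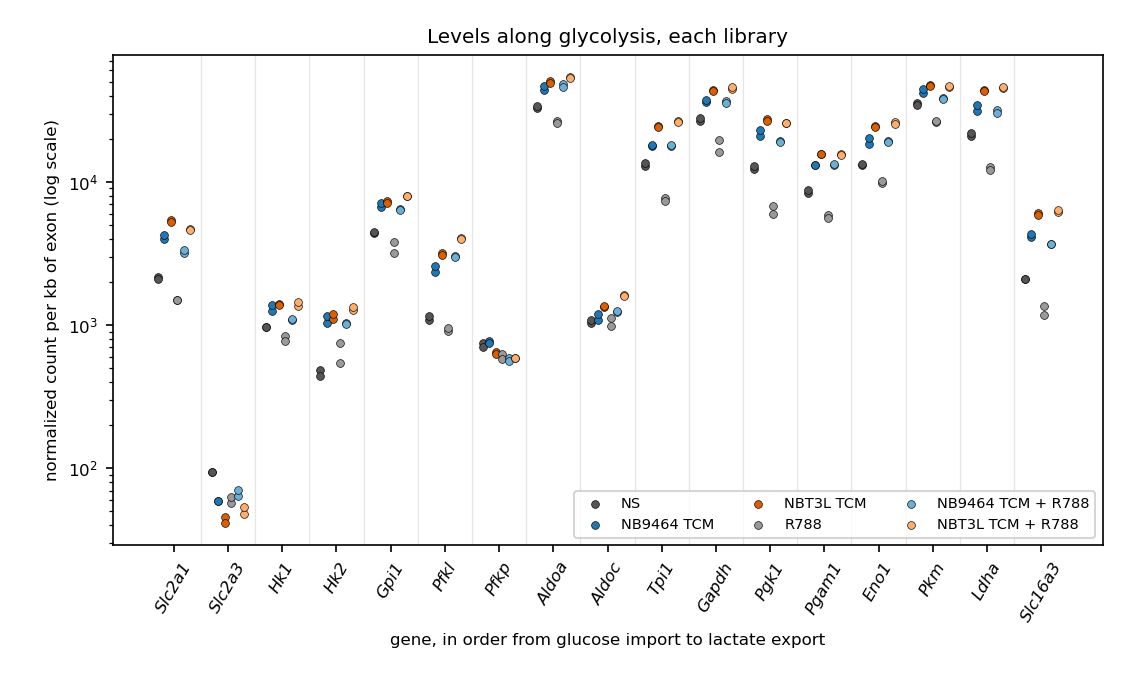
Normalized count per kb of exon (log y axis) of each transporter and enzyme gene, ordered from glucose import to lactate export (x axis), with 1 point per library coloured by group. The steps from Aldoa to Ldha, other than Aldoc, lie above Hk1, Hk2, Pfkl and Pfkp, and Slc2a3 lies lowest.

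Per kb of exon, the enzymes from aldolase onward were the more abundant ones. In NS, Pkm had a mean of 34987 normalized counts per kb, Aldoa 33486, Gapdh 27235 and Ldha 21265. Pfkl had 1116, Hk1 974, Pfkp 725 and Hk2 463. With Aldoc these 4 were the lowest of the 14 enzymes in NS. Within the pairs of related enzymes the balance differed between media. The ratio of Pfkl to Pfkp per kb was 1.45 to 1.64 in NS, 3.06 to 3.44 in NB9464 TCM and 4.87 to 4.92 in NBT3L TCM. The ratio of Hk1 to Hk2 was 2.0 to 2.22 in NS, 1.21 to 1.23 in NB9464 TCM and 1.15 to 1.27 in NBT3L TCM. The ratio of Aldoa to Aldoc ran from 31.2 to 40.5 over these 3 groups.

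Pfkfb3 makes fructose 2,6-bisphosphate, the strongest activator of phosphofructokinase, and had the highest rise of all members. Its counts were 2218 and 2038 in NS, 14134 and 13311 in NB9464 TCM and 16181 and 15793 in NBT3L TCM. The level was 6.45-fold and 7.51-fold that of NS, or 2.69 ± 0.064 and 2.91 ± 0.064 on the log2 scale. The DESeq2 p-values were too small to be written as numbers, and the adjusted p of the edgeR quasi-likelihood test was 1.73e-14 and 5.82e-15. Pdk1, the kinase that blocks the entry of pyruvate into mitochondria, is a standard HIF1A target and moved far less. It had 6296 and 6514 counts in NS, 6363 and 6544 in NB9464 TCM and 8181 and 7904 in NBT3L TCM. The change was 0.011 ± 0.061 (adjusted p = 0.927) in NB9464 TCM, with a 95% interval of -0.11 to 0.13, and 0.33 ± 0.061 (adjusted p = 6.01e-07) in NBT3L TCM.

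Bnip3 had the widest called difference between the TCMs. Bnip3, a receptor for the removal of mitochondria, had 1425 and 1516 counts in NS, 2090.1 and 1918 in NB9464 TCM and 4348 and 4221 in NBT3L TCM. It rose by 0.45 ± 0.11 (adjusted p = 0.000126) and 1.54 ± 0.10 (adjusted p = 1.49e-47), and the difference between the TCMs, NB9464 minus NBT3L, was -1.10 ± 0.10 (adjusted p = 1.09e-23). Its relative Bnip3l, with 4413 and 4642, 5974 and 5805 and 6573 and 7012 counts, rose by 0.38 ± 0.072 and 0.59 ± 0.073. Per kb, Bnip3 was at 0.550 to 0.556 of the level of Bnip3l in NS, 0.563 to 0.596 in NB9464 TCM and 1.03 to 1.13 in NBT3L TCM. Higd1a, which binds respiratory complexes, rose in NBT3L TCM (0.79 ± 0.13, adjusted p = 2.38e-08), and its change in NB9464 TCM was 0.29 ± 0.13 (adjusted p = 0.0809).

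The other intracellular targets did not all rise. P4ha2, a prolyl hydroxylase of collagen, had 1086 and 1000.3 counts in NS, 2279 and 2215 in NB9464 TCM and 3573 and 3359 in NBT3L TCM, rises of 1.11 ± 0.096 (adjusted p = 3.87e-29) and 1.73 ± 0.096 (adjusted p = 4.79e-71). P4ha1, the more abundant subunit of the same kind, rose by 0.53 ± 0.059 and 0.95 ± 0.059. Ndrg1, a stress-responsive gene, went further in NB9464 TCM than in NBT3L TCM, with 2286 and 2043 in NS, 6276 and 6338 in NB9464 TCM and 4890.0 and 5035 in NBT3L TCM. It rose by 1.54 ± 0.091 (adjusted p = 2.65e-62) and 1.20 ± 0.092 (adjusted p = 1.95e-37), and was higher in NB9464 TCM by 0.35 ± 0.090 (adjusted p = 0.00192). Ankrd37, a small ankyrin repeat protein known as a direct HIF1A target, had 388 and 457, 698 and 765 and 911 and 865 counts and rose by 0.79 ± 0.17 (adjusted p = 3.22e-05) and 1.07 ± 0.17 (adjusted p = 6.69e-09). Ankrd37 shares 57 exonic bases with the other strand of Ufsp2, whose counts over all libraries were 49149. Mxi1, an antagonist of MYC, fell from 1770.4 and 1696 to 911 and 950.3 and 1124 and 969.5, with changes of -0.90 ± 0.13 (adjusted p = 1.73e-10) and -0.73 ± 0.13 (adjusted p = 3.54e-07). Kdm3a, a histone demethylase, changed by -0.13 ± 0.093 (adjusted p = 0.302) in NB9464 TCM and by 0.23 ± 0.093 (adjusted p = 0.0331) in NBT3L TCM, where edgeR did not call it (adjusted p = 0.0619) and the call was lost without SJ2, SJ5 or SJ6.

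The 3 secreted factors behaved differently from each other. Mif, a cytokine that is also a HIF1A target, had 7324 and 8151 counts in NS, 11979.8 and 12212 in NB9464 TCM and 17099.6 and 17764 in NBT3L TCM, rises of 0.64 ± 0.18 (adjusted p = 0.00197) and 1.17 ± 0.18 (adjusted p = 1.61e-09). The first of these calls was lost without NS library SJ1. Vegfa, the main angiogenic factor under HIF control, had 1784 and 1796 in NS, 1811 and 1715 in NB9464 TCM and 1067 and 1017 in NBT3L TCM. Its change was -0.022 ± 0.12 (adjusted p = 0.926) in NB9464 TCM, with a 95% interval of -0.26 to 0.22, and it fell in NBT3L TCM (-0.78 ± 0.12, adjusted p = 2.22e-09). Adm, a vasodilator peptide, had the fewest counts, 12 to 79 per library. Its normalized counts were 15.0 and 15.2, 26.8 and 14.9 and 32.2 and 69.3, and neither change was called (0.46 ± 0.76, adjusted p = 0.720 and 1.75 ± 0.74, adjusted p = 0.0508).

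Set directly against each other, NB9464 TCM gave lower levels than NBT3L TCM for most of the set. In this comparison 24 members were lower and 3 were higher, whereas over all genes tested 5.72% were lower and 3.69% higher. The median of the members was -0.30 on the log2 scale, and that of all genes was -0.0014. The members that were higher in NB9464 TCM were Vegfa (0.76 ± 0.12, adjusted p = 3.95e-08), Ndrg1 and Pfkp (0.25 ± 0.065, adjusted p = 0.00179). Among those lower by at least 0.5 were Bnip3, Egln3 (-0.88 ± 0.12), P4ha2 (-0.63 ± 0.093), Hif1a (-0.55 ± 0.072), Mif (-0.53 ± 0.18) and Higd1a (-0.50 ± 0.13). The call of Ndrg1 was lost without SJ5, that of Pfkp without SJ3 or SJ6, that of Higd1a without SJ3 or SJ5, and that of Mif without any 1 of the 4 libraries. The glycolytic enzymes that were called lower spanned -0.45 (Tpi1) to -0.12 (Pkm). For Hk1, Hk2 and Gpi1 the difference was not called, with 95% intervals of -0.20 to 0.063, -0.31 to 0.15 and -0.19 to 0.075. Slc2a3, Ankrd37 and Mxi1 were not called either, and DESeq2 gave Adm no adjusted p here. The edgeR test, with TMM scaling, called 22 of the 34, without Aldoa, Aldoc, Pkm, Pfkfb3 and Bnip3l. DESeq2 with TMM scaling also called 22, without Aldoa, Aldoc, Pkm, Bnip3l and Mif. The calls of Aldoa, Aldoc, Pkm and Gapdh were each lost without SJ3, SJ5 or SJ6, and that of Bnip3l without any 1 of the 4 libraries. That of Pfkfb3 was lost without SJ4, SJ5 or SJ6, and that of Kdm3a without SJ4 or SJ6. The pairs of libraries did not overlap for 31 members, against 49.3% of all genes tested. Without NBT3L TCM library SJ5 or SJ6, 18 members were called in each case.

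R788 lowered most of the set in macrophages without TCM. In R788 against NS, 22 members fell and 2 rose, against 15% of all genes tested that fell and 11.6% that rose. The falls came from 15 of the 18 glycolysis members and 7 of the 16 of the HIF1A group. The members had a median log2 fold change of -0.35, and all genes one of 0. In NB9464 TCM, R788 lowered 7 members and raised 3, where the shares of all genes were 8.7% and 5.79%. In NBT3L TCM it lowered 2 and raised 5, where the shares were 7.24% and 5.33%. The medians of the members were -0.0049 and 0.091 in these media. The values of the pairs of libraries did not overlap for 26, 22 and 27 members in the 3 media, where they did not overlap for 55.8%, 51.8% and 53.6% of all genes tested. In the TCMs most of those members did not pass the test. These comparisons share no library with each other. A fit to the 4 libraries of NBT3L TCM alone called 20 members, 16 of them higher, with log2 fold changes as small as 0.050 for Gapdh. Without NB9464 TCM library SJ4, the count in NB9464 TCM was 4, and without library SJ5, SJ11 or SJ12 the count in NBT3L TCM was 4.

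Since SJ8 stood apart, R788 against NS was also computed without it. The count was then 25 of the 34, with Ndrg1 added at -0.27. Without SJ8 the rise of Hk2 went from 0.49 to 0.23. The fall of Gpi1 went from -0.34 to -0.22, that of Higd1a from -0.59 to -0.37 and that of Mif from -0.95 to -0.68. Gapdh was then at -0.47, while Tpi1 went from -0.80 to -0.76 and Ankrd37 from -1.66 to -1.5. Without the other R788 library, SJ7, 24 members were called and Vegfa was no longer among them.

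**Figure D4:**
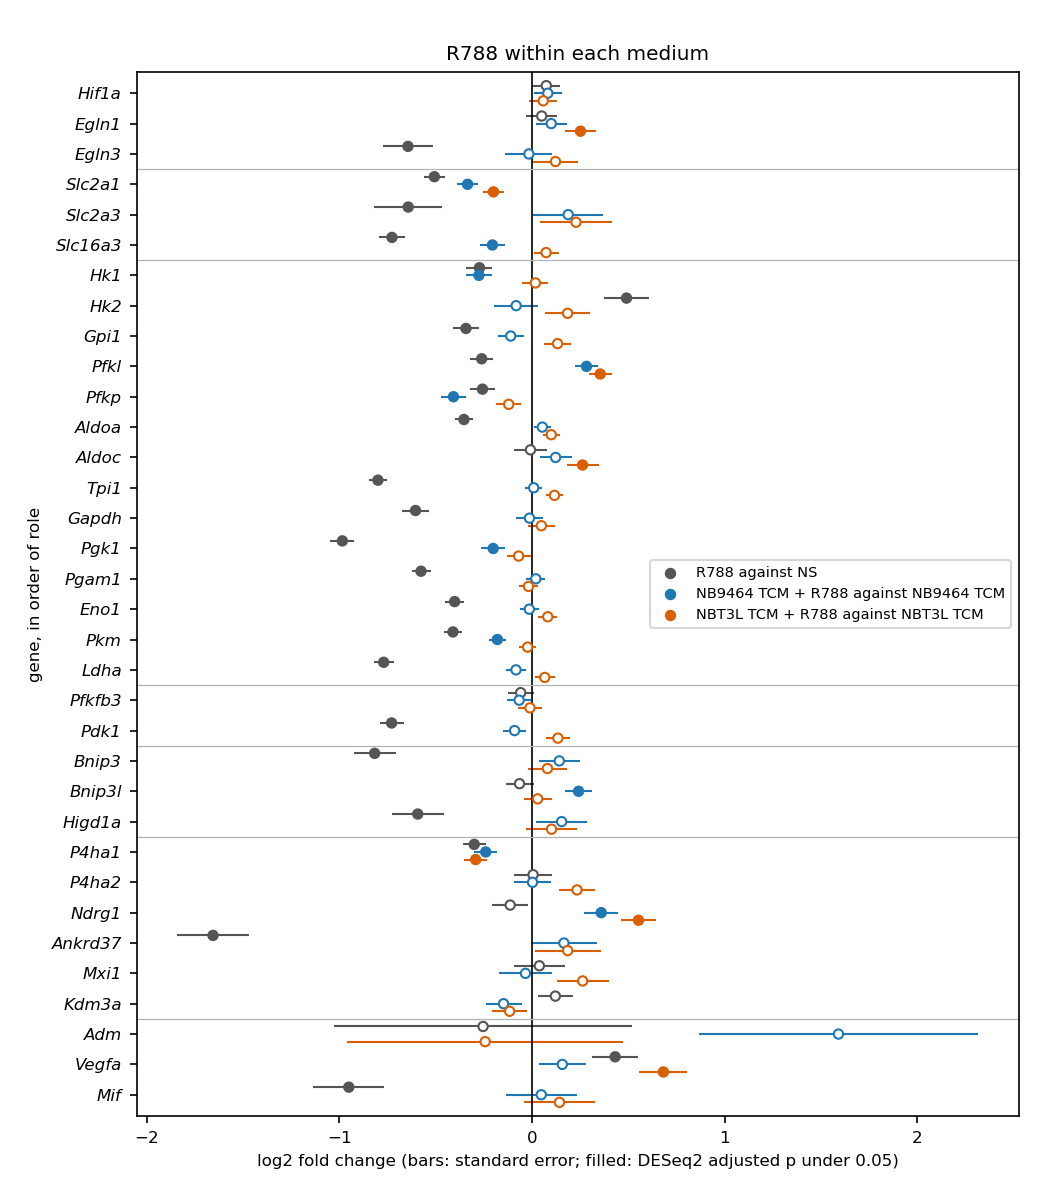
Log2 fold change (x axis) of each of the 34 genes (y axis, by role) with R788 in unstimulated BMDMs (grey), in NB9464 TCM (blue) and in NBT3L TCM (orange), with standard errors as bars and filled points where the DESeq2 adjusted p was under 0.05. Grey points lie left of 0 for most glycolytic genes, Pgk1 farthest at -0.98, and Ankrd37 lies farthest left of all at -1.66.

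Hif1a RNA was not called in any of the 3 comparisons of R788. Its counts were 5632 and 6471 in R788, 10934 and 11099 in NB9464 TCM + R788 and 15804 and 16021 in NBT3L TCM + R788. The changes were 0.074 ± 0.073 (adjusted p = 0.503), then 0.082 ± 0.072 (adjusted p = 0.510) and 0.059 ± 0.072 (adjusted p = 0.698). Their 95% intervals were -0.068 to 0.22, -0.059 to 0.22 and -0.082 to 0.20. Egln3 fell without TCM to 366 and 375 counts (-0.64 ± 0.13, adjusted p = 8.74e-06). With R788 it had 1167 and 1189 in NB9464 TCM and 2452 and 2311 in NBT3L TCM, changes of -0.016 ± 0.12 and 0.12 ± 0.12 that were not called. Egln1 rose in NBT3L TCM to 5999.8 and 5715 (0.25 ± 0.080, adjusted p = 0.0138), and this call was lost without SJ5, SJ11 or SJ12.

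Slc2a1 and P4ha1 were the members that R788 lowered in all 3 media. Slc2a1 had 5224 and 5253 counts in R788, 11243 and 11775 in NB9464 TCM + R788 and 16389 and 16252 in NBT3L TCM + R788. Each pair lay below the pair in the same medium without R788, with changes of -0.51 ± 0.056 (adjusted p = 3.85e-18) without TCM, -0.33 ± 0.054 (adjusted p = 2.85e-08) with NB9464 TCM and -0.20 ± 0.054 (adjusted p = 0.00268) with NBT3L TCM. The last of these calls was lost without SJ5, SJ11 or SJ12. P4ha1 had 5805 and 5949, 8896 and 8830.5 and 11374 and 11506 with R788, against 7468 and 6999, 10147 and 10786 and 13831 and 14183 without it. Its falls were -0.30 ± 0.059 (adjusted p = 4.66e-06) without TCM, -0.24 ± 0.059 (adjusted p = 0.000588) with NB9464 TCM and -0.29 ± 0.058 (adjusted p = 1.37e-05) with NBT3L TCM, and the second of these calls was lost without SJ4. Slc16a3 fell to 7264 and 6212 without TCM (-0.73 ± 0.066, adjusted p = 2.22e-26) and to 19569 and 19593 in NB9464 TCM (-0.21 ± 0.065, adjusted p = 0.0123, edgeR adjusted p = 0.0510), and had 32848 and 33630.1 in NBT3L TCM + R788. Its call in NB9464 TCM was lost without SJ4, SJ9 or SJ10. Slc2a3 fell without TCM to 415 and 457 (-0.64 ± 0.18, adjusted p = 0.00172).

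Pgk1, Tpi1, Ldha and Gapdh had the deepest falls among the enzymes without TCM. The place of Gapdh depended on SJ8, since without that library Gapdh was at -0.47 and Pgam1 at -0.53. Pgk1 had 15287 and 13405 counts in R788 (-0.98 ± 0.063, adjusted p = 1.12e-52), a level 0.506 times that of NS. Ldha had 42239 and 40345 (-0.77 ± 0.052, adjusted p = 6.40e-48). Tpi1 had 21378 and 20274 (-0.80 ± 0.046, adjusted p = 2.20e-65) and Gapdh 81412 and 66688 (-0.60 ± 0.070, adjusted p = 1.29e-16). For all 4 genes both R788 libraries lay below both NS libraries. In NB9464 TCM + R788 the counts were 43374 and 42631 for Pgk1, 104617 and 100735 for Ldha, 49095 and 49767 for Tpi1 and 151749 and 148039 for Gapdh. In NBT3L TCM + R788 they were 57743 and 57519.6, 149449 and 151244, 73362 and 72417 and 183579 and 188583 in the same order of genes. Of these 8 changes in TCM, that of Pgk1 in NB9464 TCM was called (-0.20 ± 0.063, adjusted p = 0.0104), and this call was lost without SJ4, SJ9 or SJ10. The others were between -0.083 ± 0.052 (Ldha in NB9464 TCM) and 0.12 ± 0.046 (Tpi1 in NBT3L TCM).

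Pgam1, Pkm, Eno1, Aldoa, Gpi1, Hk1 and Pfkp also fell in R788 against NS. Their log2 fold changes were -0.58 ± 0.049 for Pgam1, -0.41 ± 0.045 for Pkm, -0.40 ± 0.049 for Eno1, -0.35 ± 0.045 for Aldoa, -0.34 ± 0.069 for Gpi1, -0.27 ± 0.068 for Hk1 and -0.26 ± 0.065 for Pfkp. In NB9464 TCM, R788 lowered Hk1 (-0.28 ± 0.067, adjusted p = 0.000561), Pfkp (-0.41 ± 0.065, adjusted p = 1.35e-08) and Pkm (-0.18 ± 0.045, adjusted p = 0.000834). The calls of Hk1 and Pkm were lost without SJ4. Hk2 went the other way and rose without TCM to 3255 and 4509 (0.49 ± 0.12, adjusted p = 0.000204), with the higher value in SJ8. Aldoc rose with R788 in NBT3L TCM (0.26 ± 0.083, adjusted p = 0.0141), a call lost without any 1 of the 4 libraries.

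Pfkl was the member whose called response to R788 changed sign with the medium. It fell without TCM to 6059 and 6376 (-0.26 ± 0.061, adjusted p = 0.000136). It rose in NB9464 TCM to 20265 and 19950.2 (0.28 ± 0.059, adjusted p = 3.50e-05) and in NBT3L TCM to 26891 and 26612 (0.35 ± 0.059, adjusted p = 7.25e-08). In each medium the pair with R788 and the pair without it did not overlap. The per kb ratio of Pfkl to Pfkp reached 5.13 to 5.36 in NB9464 TCM + R788 and 6.79 to 6.81 in NBT3L TCM + R788. Pfkfb3, by contrast, kept 2080.4 and 2008 counts in R788, 12791 and 13421 in NB9464 TCM + R788 and 15747 and 15999 in NBT3L TCM + R788. None of its 3 changes was called, and their 95% intervals were -0.19 to 0.072, -0.19 to 0.053 and -0.13 to 0.11.

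**Figure D5:**
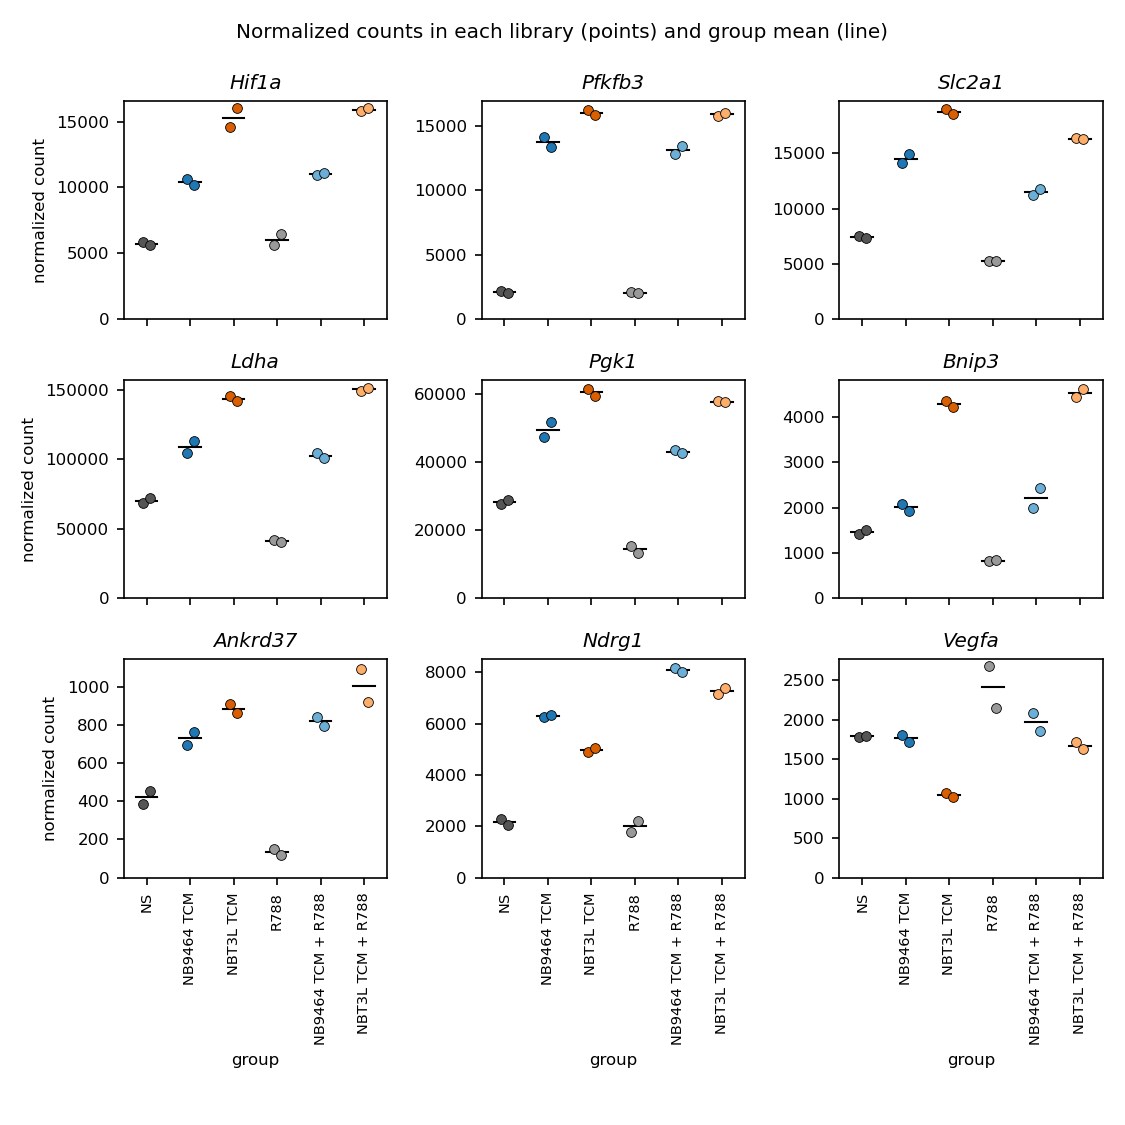
Normalized counts (y axis, from 0) of 9 members in each library (points) with the mean of each group (line), for the 6 groups (x axis). Ldha, Pgk1, Bnip3 and Ankrd37 are lowest in R788 alone, Slc2a1 is lower with R788 in every medium, and Hif1a and Pfkfb3 have like levels with and without R788.

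Among the other HIF1A targets, Ankrd37 had the deepest fall of the set in R788. Its counts were 150.0 and 119 in R788, a level 0.318 times that of NS (-1.66 ± 0.19, adjusted p = 7.09e-17). With R788 it had 845 and 795 in NB9464 TCM and 1098 and 921 in NBT3L TCM, and neither change was called (0.17 ± 0.17 and 0.19 ± 0.17). Bnip3 fell to 815 and 854 without TCM (-0.82 ± 0.11, adjusted p = 1.24e-12), and had 1997 and 2427 and 4443 and 4617 with R788 in NB9464 TCM and NBT3L TCM. Pdk1 fell to 3785 and 3946 (-0.73 ± 0.062, adjusted p = 6.84e-30), Mif to 4819.7 and 3190.3 (-0.95 ± 0.18, adjusted p = 2.79e-06) and Higd1a to 1272 and 909 (-0.59 ± 0.13, adjusted p = 9.33e-05). None of these 5 genes was called with R788 in either TCM. Bnip3l rose with R788 in NB9464 TCM (0.24 ± 0.072, adjusted p = 0.00678), a call lost without SJ4, SJ9 or SJ10.

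Ndrg1 rose with R788 in both TCMs, and Vegfa rose without TCM and in NBT3L TCM. Ndrg1 had 1793 and 2208 counts in R788 (-0.11 ± 0.093, adjusted p = 0.408), 8184 and 7999 in NB9464 TCM + R788 (0.36 ± 0.090, adjusted p = 0.000760) and 7175 and 7387 in NBT3L TCM + R788 (0.55 ± 0.090, adjusted p = 3.12e-08). Both TCM groups with R788 lay above the TCM groups without it. Vegfa had 2680.3 and 2150.0 in R788 (0.43 ± 0.12, adjusted p = 0.00193), 2079 and 1853 in NB9464 TCM + R788 (0.16 ± 0.12, adjusted p = 0.433) and 1716 and 1627 in NBT3L TCM + R788 (0.68 ± 0.12, adjusted p = 1.08e-06). The NBT3L TCM + R788 pair lay below both NS libraries and above both NBT3L TCM libraries. P4ha2, Mxi1, Kdm3a and Adm were not called in any of the 3 media, with log2 fold changes from -0.25 to 1.59, both of Adm, and from -0.15 to 0.26 for the other three.

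Whether the response to R788 differed between media was tested by interaction terms, the change with R788 in a TCM minus the change without TCM. For NB9464 TCM, 19 members had a positive and 1 a negative term that passed, against 6.22% and 6.26% of all genes. For NBT3L TCM, 21 were positive and 0 negative, against 5.17% and 4.96% of all genes. In that comparison 22 members had an unadjusted p under 0.05, and edgeR called 20, none of them negative. Both sets of terms contain the same R788 and NS libraries, SJ8 included, so they are not independent of each other. Without SJ8, 19 and 20 members were called. Ankrd37 had the highest called terms, 1.82 ± 0.26 (adjusted p = 7.36e-11) with NB9464 TCM and 1.84 ± 0.25 (adjusted p = 4.50e-11) with NBT3L TCM. Those of Tpi1 were 0.81 ± 0.065 (adjusted p = 5.23e-33) and 0.92 ± 0.065 (adjusted p = 1.26e-42), and those of Ldha 0.69 ± 0.073 (adjusted p = 1.21e-18) and 0.84 ± 0.073 (adjusted p = 1.02e-27). Hk2 had the negative term in NB9464 TCM (-0.57 ± 0.16, adjusted p = 0.00573), which was lost without SJ8 or without SJ2. For Hif1a and Pfkfb3 the terms were 0.0077 ± 0.10 and -0.0080 ± 0.090 in NB9464 TCM and -0.016 ± 0.10 and 0.048 ± 0.090 in NBT3L TCM, with adjusted p of 0.977, 0.973, 0.959 and 0.817.

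The response to R788 was also compared between the TCMs. DESeq2 called 0 members and edgeR 0, with 9 at an unadjusted p under 0.05, and DESeq2 called 0.706% of all genes. A fit to the 8 libraries with TCM alone called 5, all with a lower response in NB9464 TCM than in NBT3L TCM, namely Slc16a3, Hk1, Gpi1, Pfkp and Vegfa. Averaged over the 3 media, R788 lowered 18 members and raised 6, against 16.2% and 13.4% of all genes, with a median of -0.11 for the members and -0.0071 for all genes. Pgk1 (-0.42 ± 0.036, adjusted p = 4.54e-29), Slc2a1 (-0.35 ± 0.032, adjusted p = 2.48e-26) and P4ha1 (-0.28 ± 0.034, adjusted p = 7.46e-15) were among the lowered, and Vegfa (0.42 ± 0.070, adjusted p = 2.07e-08) and Ndrg1 (0.27 ± 0.052, adjusted p = 3.48e-06) among the raised. For Pgk1, Ldha and Tpi1 this average joins a fall without TCM to smaller or no changes in TCM. In the single media, 14 members were called lower with R788 without TCM and were not called in either TCM. A further 5 were called lower without TCM and in NB9464 TCM only, and 2, P4ha1 and Slc2a1, in all 3 media.

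Other genes of these pathways came from lists drawn up by function, with earlier results of these data known. Their counts are to be read against the shares of all genes tested, which were 17.2% higher and 16.9% lower in NB9464 TCM and 18% and 17.3% in NBT3L TCM. With R788 these shares were 11.6% and 15% without TCM, 5.79% and 8.7% in NB9464 TCM, and 5.33% and 7.24% in NBT3L TCM. Of 21 further glycolytic genes tested, 9 rose and 2 fell in NB9464 TCM and 8 rose and 2 fell in NBT3L TCM. The strongest were Slc2a6, a hexose transporter (1.43 ± 0.070, adjusted p = 5.24e-92 and 1.43 ± 0.070, adjusted p = 1.27e-91), and Pgm1 (1.22 ± 0.078, adjusted p = 1.50e-53 and 1.77 ± 0.078, adjusted p = 2.20e-112). With R788, 3 rose and 5 fell without TCM, 3 rose and 3 fell in NB9464 TCM, and 5 rose and 3 fell in NBT3L TCM. Slc16a1, a lactate transporter of the same family as Slc16a3, fell in all 3 media (-0.67 ± 0.13, adjusted p = 5.47e-06, then -0.78 ± 0.13, adjusted p = 1.43e-07 and -0.58 ± 0.13, adjusted p = 0.000202). Of 8 genes of the pentose phosphate pathway, 5 rose and 1 fell in each TCM, with G6pdx, its first enzyme, at 0.60 ± 0.047 (adjusted p = 2.13e-36) and 0.60 ± 0.047 (adjusted p = 1.13e-35). With R788, 3 rose and 1 fell without TCM, 1 rose in NB9464 TCM and 0 were called in NBT3L TCM.

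Of 30 genes of pyruvate handling and the tricarboxylic acid cycle, 13 rose and 4 fell in NB9464 TCM and 14 rose and 6 fell in NBT3L TCM. Pcx, which turns pyruvate into oxaloacetate, had the largest change (2.26 ± 0.11, adjusted p = 5.69e-88 and 2.47 ± 0.11, adjusted p = 7.70e-105). With R788, 1 rose and 10 fell without TCM, 10 rose and 1 fell in NB9464 TCM, and 1 rose and 1 fell in NBT3L TCM. Pdk2, another pyruvate dehydrogenase kinase, rose in all 3 (0.97 ± 0.22, adjusted p = 8.73e-05 without TCM, 1.17 ± 0.22, adjusted p = 4.35e-06 with NB9464 TCM and 1.09 ± 0.24, adjusted p = 0.000119 with NBT3L TCM), unlike Pdk1.

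Among 16 regulators of the HIF pathway, 6 rose and 3 fell in NB9464 TCM and 8 rose and 2 fell in NBT3L TCM, where 16.9% and 17.3% of all genes fell. Epas1, which encodes HIF2A, moved opposite to Hif1a and fell, with changes of -2.47 ± 0.16 (adjusted p = 3.47e-50) and -2.84 ± 0.17 (adjusted p = 5.14e-64). It fell with R788 as well, with changes of -0.65 ± 0.16 (adjusted p = 0.000353) without TCM and -0.71 ± 0.17 (adjusted p = 0.000429) in NB9464 TCM. Egln2, the remaining HIF prolyl hydroxylase, rose with R788 in NB9464 TCM (0.41 ± 0.087, adjusted p = 3.97e-05) and in NBT3L TCM (0.44 ± 0.088, adjusted p = 1.26e-05). With R788, 3 of the 16 rose and 4 fell without TCM, 3 rose and 2 fell in NB9464 TCM, and 3 rose and 1 fell in NBT3L TCM.

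Of 44 further HIF targets, 15 rose and 9 fell in NB9464 TCM and 16 rose and 11 fell in NBT3L TCM, with medians of 0.22 and 0.46. Of all genes, 17.2% rose and 16.9% fell in NB9464 TCM, and 18% rose and 17.3% fell in NBT3L TCM. Lox, a collagen cross-linking enzyme (6.47 ± 0.085 and 6.63 ± 0.085, with adjusted p too small to be written as a number), and Nos2, the inducible nitric oxide synthase (4.66 ± 0.18, adjusted p = 1.94e-142 and 4.85 ± 0.18, adjusted p = 2.11e-154), had the widest called rises among those with counts in NS. Edn1, the endothelin precursor, had a mean of 0 normalized counts in NS and 542 in NB9464 TCM. With R788, 10 rose and 8 fell without TCM, 5 rose and 10 fell in NB9464 TCM, and 8 rose and 8 fell in NBT3L TCM. Ak4, a mitochondrial adenylate kinase, fell without TCM (-1.93 ± 0.18, adjusted p = 3.86e-24), and Plaur, the urokinase receptor, fell in NB9464 TCM (-1.20 ± 0.081, adjusted p = 1.94e-47) and in NBT3L TCM (-1.41 ± 0.081, adjusted p = 3.14e-65).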

How the data were processed

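RNA of 12 libraries of BMDMs, 2 for each of 6 groups named in the labels, was analysed. The values are gene counts as deposited by the authors, who made them from poly(A) reads aligned to mm10. The submitters' processing notes name STAR 2.6.1d, Salmon 1.4.0, SAMtools 1.9, Picard 2.26 and MultiQC 1.11. For quantifying the reads the methods of the study name Salmon. Whether strand was used is not given in the sources used here. Among counts of 1 to 40, 65.2% to 67.9% were even in each library, and whether the mates of a pair were counted separately was not stated. The 16281 genes that reached 10 counts in 2 or more libraries entered 1 DESeq2 1.42.0 fit of 6 group means (R 4.3.3), with Wald tests, unshrunken log2 fold changes and Benjamini-Hochberg adjustment over these genes within each comparison. Normalized counts are counts divided by size factors, and levels per kb use the exon length in the table. Of the 2 gene identifiers with the symbol Aldoa, the one that overlaps the RefSeq gene was kept. Alternatives were edgeR 4.0.16, TMM scaling, other count filters, fits to the compared libraries, counts divided by 2 and leaving out each library. The steps were tested on simulated data. The members and the lists of other pathway genes and cell markers were chosen with earlier results of these data known. All members are described, and from each other list at most the 3 called genes with the largest change in a comparison, with a mean of at least 100 normalized counts, were eligible to be named.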

Additional observations from a re-analysis of the deposited data

Results flagged for a closer look

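The interaction terms that passed the DESeq2 test are given here because they show a response to R788 that differed between media. A term is the log2 fold change with R788 in a TCM minus the log2 fold change with R788 without TCM. Both sets of terms use the same R788 and NS libraries. For NB9464 TCM, the term was 1.82 for Ankrd37, 1.0 for Mif, 0.96 for Bnip3, 0.83 for Slc2a3, 0.81 for Tpi1, 0.78 for Pgk1, 0.75 for Higd1a, 0.69 for Ldha, 0.64 for Pdk1 and 0.63 for Egln3. It was 0.60 for Pgam1, 0.59 for Gapdh, 0.54 for Pfkl, 0.52 for Slc16a3, 0.47 for Ndrg1, 0.41 for Aldoa, 0.39 for Eno1, 0.31 for Bnip3l and 0.23 for Pkm. Hk2 had the one negative term, -0.57. Without SJ8 the term of Mif was 0.73 for NB9464 TCM and 0.83 for NBT3L TCM. The call of Bnip3l was lost without SJ2, SJ3, SJ4, SJ7, SJ9 or SJ10, and under edgeR (adjusted p = 0.0581). That of Slc2a3 was lost without SJ1, SJ2, SJ3 or SJ10. That of Egln3 was lost without SJ1 or SJ3, that of Hk2 without SJ2 or SJ8, and that of Pkm without SJ3 or SJ9.

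For NBT3L TCM, the term was 1.84 for Ankrd37, 1.09 for Mif, 0.92 for Tpi1, 0.91 for Pgk1, 0.90 for Bnip3, 0.87 for Slc2a3, 0.86 for Pdk1, 0.84 for Ldha, 0.80 for Slc16a3 and 0.77 for Egln3. It was 0.69 for Higd1a, 0.67 for Ndrg1, 0.65 for Gapdh, 0.62 for Pfkl, 0.56 for Pgam1, 0.48 for Eno1, 0.48 for Gpi1, 0.45 for Aldoa, 0.39 for Pkm, 0.31 for Slc2a1 and 0.29 for Hk1. The call of Hk1 was lost without SJ1, SJ2, SJ5, SJ6, SJ8 or SJ12, and under edgeR (adjusted p = 0.0711). That of Slc2a3 was lost without SJ1, SJ2, SJ6 or SJ12.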

How the results depend on the processing

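No paired analysis was possible because the labels give no replicate number that is shared between groups. The count of members called stayed within 1.5 times the reported one in all comparisons under edgeR, TMM scaling, both other count filters and counts divided by 2. Fits to the compared libraries alone called 20 members for R788 in NBT3L TCM, where the fit to all libraries called 7, and 5 for the difference in the R788 response between the TCMs, where it called 0; the spread in these fits comes from fewer libraries. Leaving out 1 library gave 4 to 10 members for R788 in NB9464 TCM, 4 to 6 for R788 in NBT3L TCM and 0 to 1 for the difference between the TCMs. In these fits the lone library of a group is assumed to vary like the other groups. No member changed direction while called. Over all members and comparisons, 30 calls were lost and 23 gained under the alternatives that keep every library, and 126 were lost and 12 gained over the fits without 1 library. Adm, with 12 to 79 counts per library, was not called in any comparison, and its changes have the widest standard errors of the members.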
